A study of Mus musculus with 80 samples.

Results

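H3K4me3, trimethylation of lysine 4 of histone H3, was compared between mouse embryonic stem cells with a catalytic-dead (CD) MLL2 and their wild type (WT). Both are V6.5 cells, and the CD cells carry the Y2602A mutation in MLL2 (gene symbol Kmt2b). The members are all H3K4me3 peaks of these cells over the whole genome, 25891 in CD and 41008 in V6.5 WT, or 66899 of the 1016002 regions in the 40 peak and window lists of a series of 80 samples. Each V6.5 WT peak was placed in a class by whether an H3K27me3 peak of V6.5 WT cells overlapped it, which gave 10240 overlapping and 30768 free peaks. A WT peak is called lost here when no CD peak overlaps it by at least 1 base and kept when one does. Each group is 1 library with no replicate, so no difference between CD and WT was tested. The 95% Wilson intervals cover counting error only, and neighbouring peaks of 1 library are not independent replicates.

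MLL2 is one of the MLL/COMPASS histone methyltransferases, and its SET domain places methyl groups on lysine 4 of histone H3. H3K4me3 marks the promoters of most active genes. In embryonic stem cells it also occurs at many silent developmental genes together with H3K27me3, the mark laid down by Polycomb repressive complex 2, and promoters with both marks are called bivalent. MLL2 is known as the main H3K4 methyltransferase at bivalent promoters, while the related SET1 complexes serve most active promoters. A catalytic-dead protein can separate the enzyme's activity from its presence on chromatin.

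The V6.5 CD and WT cells were grown with serum and LIF on gelatin with irradiated mouse fibroblasts, which were removed by 2 rounds of pre-plating for 30 min. The second set of cells is a conditional line with floxed Mll2 alleles and a tamoxifen-inducible Cre, grown without feeder cells. Its knockout (KO) cells received 4-hydroxytamoxifen for 96 h, and its WT cells received the carrier. H3K4me3 was profiled in 2 experiments of this line with 1 KO and 1 WT library each, and 1 library of MLL2 itself came from its WT cells. Line, feeder layer and allele differ between the CD and the KO comparison. No RNA values of V6.5 cells were analysed here, so neither their identity nor remaining feeder cells could be checked against marker genes.

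The CD list covered 77.6 Mb and the V6.5 WT list 112.7 Mb, a ratio of 0.689. The median peak width was 2433 bases in CD and 2016.5 bases in WT. The depth behind either list is unknown, so a shorter list and less H3K4me3 cannot be told apart. Scores are those of the authors' peak caller and are used only within a list. The lowest score was 50.01 in CD and 50 in WT, and 42.0% of CD peaks and 26.4% of WT peaks stood at the tie value of 3100 or above. Chromosome 8 stood apart in both CD libraries. Without it the ratio of covered length was 0.685, and the shares of kept peaks given next were 66.5 and 55.4% in the 2 classes.

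Of the 41008 V6.5 WT peaks, 17151 had no CD peak, or 41.8%. H3K27me3-overlapping peaks had a CD peak in 66.4% of cases (6801 of 10240, 65.5 to 67.3), against 55.4% of H3K27me3-free peaks (17056 of 30768, 54.9 to 56.0), a difference of 10.98 points. In the full lists the class with both marks thus held the smaller share of lost peaks. It made up 20.1% of the lost peaks and 25.0% of all WT peaks. Lost peaks were weaker and narrower in WT than kept ones. Lost peaks had a median WT score of 192.63 and kept peaks of 2601.68 in the overlapping class, and 117.26 and 2359 in the free class. Their median widths were 1329 and 2560 bases in the overlapping class, and 1297 and 3056.5 bases in the free class.

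The order of the 2 classes depended on which peaks were set side by side. With the 25891 highest-scoring WT peaks against the 25891 CD peaks, 17.9% of WT peaks were lost. H3K27me3-overlapping peaks then had a CD peak in 81.6% of cases (6580 of 8062, 80.8 to 82.4) and free peaks in 82.2% (14664 of 17829, 81.7 to 82.8). The difference was -0.63 points (-1.65 to 0.384). In the full lists H3K27me3-overlapping peaks were the stronger class in WT, with a median score of 1216 against 347.305 in the free class.

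Within deciles of the WT score, H3K27me3-overlapping peaks were kept less often than free peaks in each of deciles 1 to 6. In decile 5, with scores of 270.04 to 485.57, 34.0% of overlapping peaks (31.0 to 37.1) were kept, against 49.4% of free peaks (47.7 to 51.2). In decile 6, up to a score of 1002, the shares were 62.8% (60.2 to 65.4) and 72.4% (70.7 to 74.1). In decile 7 they were 93.0 and 92.9%, and in deciles 8 to 10 both classes were above 99%. The mean difference over the 10 deciles was -6.44 points. Deciles of WT width gave the other order from decile 4 up, and in decile 3 the classes were close, at 21.9 and 21.2%. In width decile 5, from 1706 to 2016 bases, 71.9% of overlapping peaks and 50.3% of free peaks were kept, and the mean difference over the deciles of width was 6.99 points. The median WT score in width decile 5 was 946.65 for overlapping and 267.26 for free peaks. In width deciles 1 and 2 fewer overlapping than free peaks were kept, 4.10 against 10.1% and 8.37 against 13.7%.

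**Figure D1:**
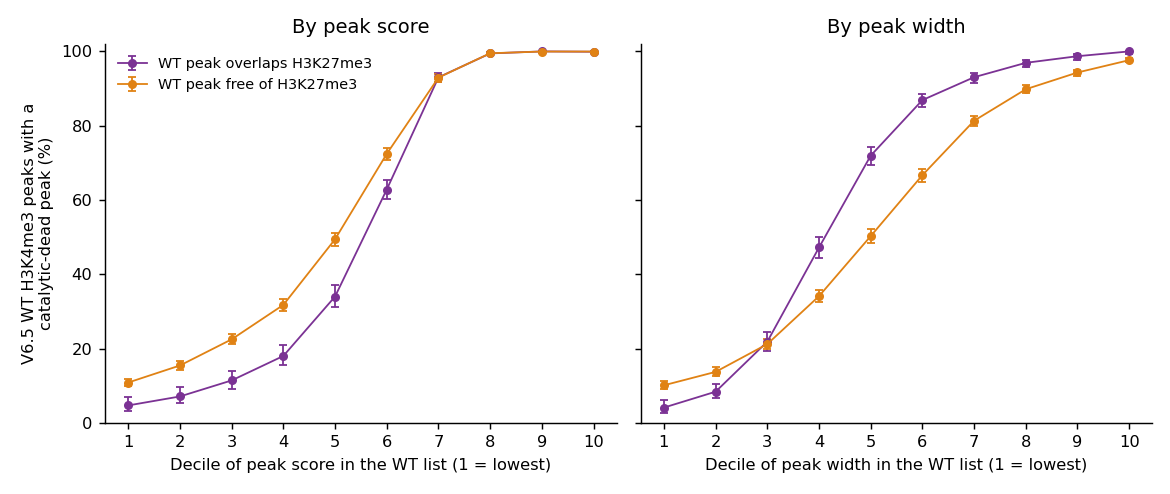
Share of V6.5 WT H3K4me3 peaks with a catalytic-dead peak (%), by decile of WT peak score (left) and of WT peak width (right), for peaks that overlap H3K27me3 and peaks free of it; bars are 95% Wilson intervals. At equal score the H3K27me3-overlapping peaks lie below the free ones in deciles 1 to 6, with 34.0 against 49.4% in decile 5, and at equal width they lie above from decile 4 on, with 71.9 against 50.3% in decile 5.

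The edge of the class was drawn at any overlap with H3K27me3. Peaks with under 10% of their bases covered by H3K27me3 were kept in 65.2% of cases (103 of 158), and peaks with no overlap but an H3K27me3 peak under 1000 bases away in 52.2% (336 of 644). Peaks covered by 10 to under 50% were kept in 74.6% (1239 of 1661), those covered by 50 to under 100% in 63.5% (2124 of 3347) and those covered in full in 65.7% (3335 of 5074). Peaks at 1000 to under 5000 bases were kept in 54.2% (1161 of 2144) and peaks 5000 or more bases away from H3K27me3 in 55.6% (15559 of 27980). The median WT score was 729.26 under 10% coverage, 2480 at 10 to under 50%, 1125 at 50 to under 100% and 1134 at full coverage. It was 233.99 under 1000 bases away, 293.775 at 1000 to under 5000 and 355.77 at 5000 or more.

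Kept peaks were covered least in CD at middling scores. A kept H3K27me3-overlapping peak had a median of 88.0% of its WT bases covered in CD (quartiles 75.5 and 95.4%), and a kept free peak 90.7% (77.0 and 97.5%). By decile of WT score the median coverage of overlapping peaks was lowest in deciles 5 and 6, with 75.1% in decile 5 and marginally less in decile 6, and 93.4% in decile 9. Free peaks had 80.0 and 79.2% in deciles 5 and 6 and 94.0% in decile 9. The widest kept H3K27me3-overlapping peak, on chromosome 13 from 112244376 to 112282198 in mm9, was 37823 bases wide in WT, and 5 CD peaks covered 68.8% of it. The next, on chromosome 3 from 34544150 to 34572324, was 28175 bases wide in WT, and 2 CD peaks covered 81.4% of it. The other 3 of the 5 widest had between 71.9 and 92.7% of their bases covered in CD. All 5 carried an H3K27me3 peak in CD as well.

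MLL2 peaks of the conditional WT line lay mostly at V6.5 peaks that CD cells kept. Among H3K27me3-overlapping peaks, 6.60% of the lost (227 of 3439) and 58.8% of the kept (3996 of 6801) had an MLL2 peak. Among free peaks the shares were 1.73% of the lost (237 of 13712) and 36.5% of the kept (6219 of 17056). Over both classes, 2.71% of lost peaks had an MLL2 peak, and 7.04% with equal-number lists and 20.7% with the upper 50% of each list by score. In that last setting a WT peak overlapped only by a lower-scoring CD peak counted as lost. Seen the other way, overlapping peaks were kept in 94.6% of cases with an MLL2 peak (3996 of 4223) and in 46.6% without one (2805 of 6017). Free peaks were kept in 96.3% with (6219 of 6456) and 44.6% without (10837 of 24312).

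The WT score moved with MLL2. H3K27me3-overlapping peaks had a median score of 3100 with an MLL2 peak and 407.57 without, and free peaks 3100 and 209.225. Within a decile of score the 2 sets were close. In decile 5 of the overlapping class, 32.9% of peaks with an MLL2 peak (25 of 76, 23.4 to 44.1) and 34.1% without (300 of 880, 31.0 to 37.3) were kept. In decile 6 the shares were 66.5% (60.4 to 72.1) and 62.0% (59.1 to 64.8), and in decile 7 they were 95.3% (93.5 to 96.5) and 91.3% (89.4 to 92.9). In the free class they were 47.5% with and 49.5% without MLL2 in decile 5, and 68.8 and 72.6% in decile 6. The part of the score in the pooled difference between MLL2-bound and other peaks was not tested beyond these strata.

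Lists of equal length were then set beside each other at the same V6.5 WT peaks. From each list the 25891 highest-scoring H3K4me3 peaks were used, which is the whole CD list. H3K27me3-overlapping WT peaks had a peak in 66.4% of cases in CD, in 49.9 and 44.2% in KO experiments 1 and 2, and in 78.6 and 78.3% in the conditional WT of experiments 1 and 2. CD thus stood between KO and conditional WT in this class. The shares for free peaks were 55.4% in CD, 58.9 and 57.7% in KO, and 54.7 and 53.4% in conditional WT, so that here the KO lists held the highest shares. Lists of a fixed length that hold fewer peaks of one class must hold more others, so the orders in the 2 classes are not independent.

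In the H3K27me3-overlapping class this order was seen with and without MLL2. H3K27me3-overlapping peaks with an MLL2 peak had H3K4me3 in 94.6% of cases in CD, 78.9 and 71.8% in KO, and 98.9 and 99.0% in conditional WT. Without an MLL2 peak the shares were 46.6% in CD, 29.6 and 24.9% in KO, and 64.4 and 63.7% in conditional WT. Free peaks with an MLL2 peak stood at 96.3% in CD, 96.0 and 95.6% in KO, and 98.7 and 98.4% in conditional WT. Free peaks without an MLL2 peak had another order, 44.6% in CD, 49.1 and 47.7% in KO, and 43.0 and 41.5% in conditional WT. The same order was seen in deciles 5 to 7 of score in the overlapping class. In decile 6, 62.8% had a peak in CD, 26.8 and 20.9% in KO, and 95.8% (1286 of 1342) in conditional WT experiment 1, with 1275 of 1342 in experiment 2. In decile 7 the shares were 93.0% in CD, 52.2 and 40.7% in KO, and 99.7% in both conditional WT libraries. Catalytic loss and protein loss cannot be told apart from line, feeder layer and experiment in this comparison.

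**Figure D2:**
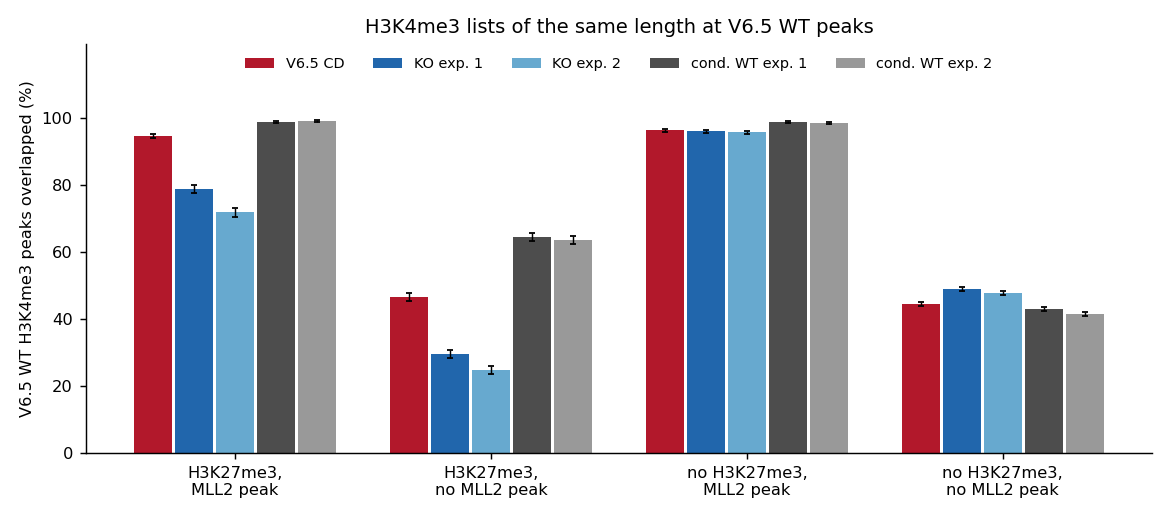
Share of V6.5 WT H3K4me3 peaks overlapped (%) by the 25891 highest-scoring H3K4me3 peaks of the CD, KO and conditional WT libraries, for peaks with and without H3K27me3 and an MLL2 peak; bars are 95% Wilson intervals. At peaks with H3K27me3 and MLL2 the CD library stands at 94.6%, above both KO libraries at 78.9 and 71.8% and below both conditional WT libraries at 98.9 and 99.0%.

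Peaks lost in CD were also those most often absent in KO cells. The comparison used V6.5 WT peaks with a peak in the conditional WT library of the same experiment. Of these, 30.3% had no KO peak in experiment 1 and 33.2% in experiment 2. In experiment 1 a KO peak was present at 11.4% of lost and 78.6% of kept H3K27me3-overlapping peaks, and at 34.6% of lost and 95.4% of kept free peaks. In experiment 2 the shares were 8.94 and 67.9% in the overlapping class, and 32.2 and 93.6% in the free class. Over both classes the difference was -61.9 points in experiment 1 and -59.9 points in experiment 2. It was -27.9 and -35.7 points with the upper 50% of each V6.5 list by score, where a WT peak overlapped only by a lower-scoring CD peak counted as lost. Within deciles of score the difference was smaller on average, with a mean over deciles 1 to 7 of -48.7 and -44.1 points. In decile 1 it was -61.9 points in experiment 1 and -51.8 points in experiment 2. In decile 6 of the overlapping class, 15.3% of lost (76 of 498, 12.4 to 18.7) and 48.5% of kept peaks (407 of 839, 45.1 to 51.9) had a KO peak in experiment 1. In experiment 2 these shares were 10.8 and 33.5%. In decile 6 of the free class they were 55.4 and 91.6% in experiment 1 and 50.4 and 87.6% in experiment 2.

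**Figure D3:**
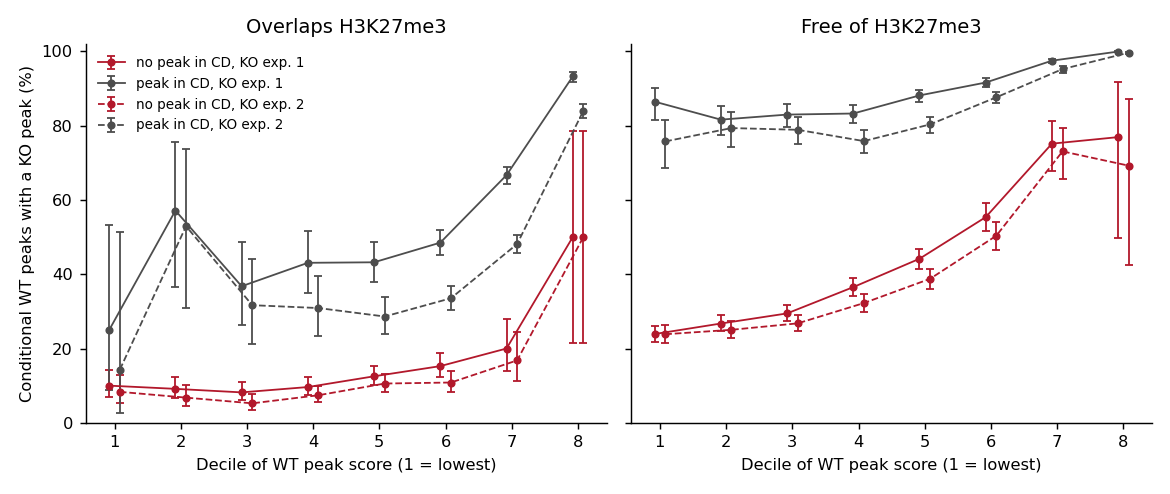
Share of conditional WT H3K4me3 peaks with a KO peak (%), by decile of V6.5 WT peak score, for V6.5 WT peaks with no peak in CD and with a peak in CD, in KO experiments 1 and 2; bars are 95% Wilson intervals, and deciles 9 and 10, with at most 2 lost peaks each, are left out. In decile 6 of the H3K27me3-overlapping class, 15.3% of peaks lost in CD and 48.5% of peaks kept in CD had a KO peak in experiment 1.

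Among H3K27me3-overlapping peaks found in both conditional WT libraries (9388), 24.8% were in neither CD nor KO, 14.7% were in CD and no KO library, and 2.30% were in both KO libraries and not in CD. Among free peaks found in both conditional WT libraries (22367), 18.8% were in neither CD nor KO, 2.33% were in CD and no KO library, and 9.17% were in both KO libraries and not in CD. At peaks with H3K27me3 and an MLL2 peak (4218), 473 were in CD and no KO library and 14 were in both KO libraries and not in CD. Peaks with H3K27me3 that the 2 comparisons did not share were thus mostly present in CD and absent in KO, and the free ones mostly the reverse. These counts use the full lists, of which the KO lists are longer than the CD list.

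Strong peaks were rarely lost. Of 16418 WT peaks with a score of at least 1000, 315 had no CD peak, or 1.92%, and of 10842 with a score of at least 3100, 11 had none. The 315 divided unlike between the classes in their KO state. Among strong peaks present in both conditional WT libraries, 136 overlapping H3K27me3 were lost in CD, and 75.7% of these (103, 67.9 to 82.2) had a peak in no KO library, against 12.7% of 5358 kept ones. Of 171 free ones lost in CD, 21.1% (36, 15.6 to 27.8) had a peak in no KO library, against 0.440% of 10682 kept ones. A further 69.6% of the 171 (119) had a peak in both KO libraries. Strong H3K27me3-overlapping peaks lost in CD were thus mostly absent from KO cells too, and strong free ones were mostly present there. These lost and kept sets were not matched for score. In decile 7 of the overlapping class, 20% of lost and 66.7% of kept peaks had a KO peak in experiment 1. In experiment 2 these shares were 16.8 and 48.1%. In decile 7 of the free class they were 75.2 and 97.5% in experiment 1, and 73.1 and 95.2% in experiment 2.

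Positions are given in mm9, counted from 1, and no gene is assigned because no annotation of that build was used here. The highest-scoring lost H3K27me3-overlapping peak lay on chromosome 13 from 23502049 to 23505992, with a score of 3100, and was present in both KO and both conditional WT libraries. The second, on chromosome 5 from 144013995 to 144017523, also had a score of 3100, an MLL2 peak, and a peak in both KO libraries. The third, on chromosome 12 from 109153024 to 109155948, had a score of 3035, an MLL2 peak, and no peak in either KO library. The fourth, on chromosome 13 from 25146519 to 25148977, had a score of 3027 and likewise an MLL2 peak and no KO peak. Of the 5 highest-scoring lost free peaks, all with scores of at least 3100, 3 lay on chromosome 13. The highest, from 59577409 to 59580188 with a score of 3136.71, had no MLL2 peak and a peak in both KO libraries. The other 2 on that chromosome, from 22025085 to 22030440 and from 23588821 to 23600690, had an MLL2 peak and no KO peak. The remaining peaks, on chromosomes 10 and 12, had no MLL2 peak and a peak in both KO libraries. Of the 11 lost peaks with a score of at least 3100, 2 overlapped H3K27me3, so further lost free peaks tied at 3100 with those named. In the ranking, the lost free peaks at 3100 stood in order of falling width.

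Among the 4223 H3K27me3-overlapping peaks with an MLL2 peak, 227 were lost in CD, and 202 of these were absent from both KO libraries too. Of 4218 such peaks found in both conditional WT libraries, lost or kept, 11.2% were in CD and no KO library, and 4.72% in none of CD and KO. Of the 202, 199 were present in both conditional WT libraries. The 202 had a median score of 541.205 and a median width of 1512.5 bases, against 3100 and 2768 bases for all 4223. The highest-scoring were the peaks on chromosomes 12 and 13 just named, followed by chromosome 13 from 21354828 to 21357258 with a score of 2496, chromosome 17 from 69189565 to 69191735 with 2396, and chromosome 11 from 58129266 to 58131446 with 2220. The peak on chromosome 17 was the only one of these 5 with an H3K27me3 peak in CD.

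Other chromatin features of the conditional WT line were set beside CD loss. RNA polymerase II phosphorylated at serine 5, the form found at promoters, had a peak at 20.4% of lost and 76.2% of kept H3K27me3-overlapping peaks, and at 16.1% of lost and 66.6% of kept free peaks. RPB1, the largest subunit of the polymerase, had one at 3.90 and 33.1% of overlapping peaks, and at 19.8 and 65.9% of free peaks. H3K27ac, acetylation found at active promoters and enhancers, lay at 4.39 and 20.2% of overlapping peaks, and at 25.6 and 73.7% of free peaks. Open chromatin by ATAC-seq, over 3 WT libraries, was at 20.0% ± 3.88 of lost and 61.7% ± 4.58 of kept overlapping peaks (SD over libraries, n = 3), and at 18.0% ± 3.70 and 65.5% ± 4.79 of free peaks. CTCF, an insulator protein, had a smaller gap, with a peak at 25.9% of lost and 36.2% of kept overlapping peaks.

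Part of these gaps moved with the WT score. In decile 6 of the overlapping class, RPB1 lay at 6.61% of lost and 7.83% of kept peaks, and MLL2 at 16.6 and 19.6%. RNA polymerase II phosphorylated at serine 5 lay at 28.7 and 48.2%, and H3K27ac at 4.41 and 10.7%. In decile 6 of the free class, H3K27ac lay at 30.4% of lost and 63.3% of kept peaks, ATAC-seq library 1 at 17.1 and 38.4%, and RPB1 at 36.1 and 42.4%. CTCF and H3K36me3, a mark of transcribed gene bodies, turned their order at equal score. CTCF lay at 30.3% of lost and 23.8% of kept peaks in decile 6 of the overlapping class, and in the free class it was higher at lost peaks in each of deciles 1 to 6, with 29.6 and 26.8% in decile 6. H3K36me3 in the free class was pooled at 26.7% of lost and 42.3% of kept peaks, but was higher at lost peaks in each of deciles 1 to 7, with 37.6 and 25.7% in decile 6. H3K27ac, ATAC-seq and the serine 5 form kept a wide gap at equal score in the free class, and RPB1 a narrow one. MLL2 in the free class was slightly higher at lost peaks in each of deciles 2 to 6, with 6.44 and 5.41% in decile 6.

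Sequential ChIP, in which chromatin is precipitated for 1 mark and then for the other, asks whether both marks sit on the same fragment. Windows with H3K4me3 first and H3K27me3 second lay at 10.6% of lost and 65.6% of kept H3K27me3-overlapping peaks, and windows in the reverse order at 26.1 and 73.8%. At free peaks the shares were at most 4.57%. RING1B, which ubiquitinates histone H2A in Polycomb repressive complex 1, had a peak at 45.9 and 86.9% of overlapping peaks in experiment 1. SUZ12, part of the core that deposits H3K27me3, had one at 31.8 and 71.3% in experiment 2. At equal score, where RING1B was compared in experiment 1 alone, these gaps were smaller. In decile 5 of the overlapping class the shares at lost and kept peaks were 13.3 and 16.0% for windows with H3K4me3 first. They were 56.3 and 63.1% for RING1B in experiment 1, and 37.7 and 40.0% for SUZ12 in experiment 2. In decile 6 they were 30.5 and 41.4% for windows with H3K4me3 first, and 63.3 and 75.4% for RING1B in experiment 1. For SUZ12 they were 49.5 and 60.3% in experiment 2 and 27.9 and 45.9% in experiment 1. Windows in the reverse order turned in decile 5, with 34.1% of lost and 32.9% of kept peaks. Among the lower deciles they also turned in decile 1, at 10.5 and 0%, and in decile 3, at 15.1 and 7.79%. Windows with H3K4me3 first turned in decile 2, at 0.587 and 0%, and in decile 3, at 2.84 and 0%. In decile 6 the shares for the reverse order were 49.3 and 53.3%.

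H3K27me3 in CD cells differed more within a decile. It was present at 45.5% of lost peaks (1564 of 3439, 43.8 to 47.1) and at 88.8% of kept peaks (6039 of 6801, 88.0 to 89.5) of the class that overlaps H3K27me3 in V6.5 WT. In decile 5 of the H3K4me3 score the shares were 45.0 and 72.0%, in decile 6 they were 45.5 and 79.8%, and in decile 7 they were 35.2 and 86.5%. Of free peaks, 1.62% of the lost and 5.71% of the kept had an H3K27me3 peak in CD.

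**Figure D4:**
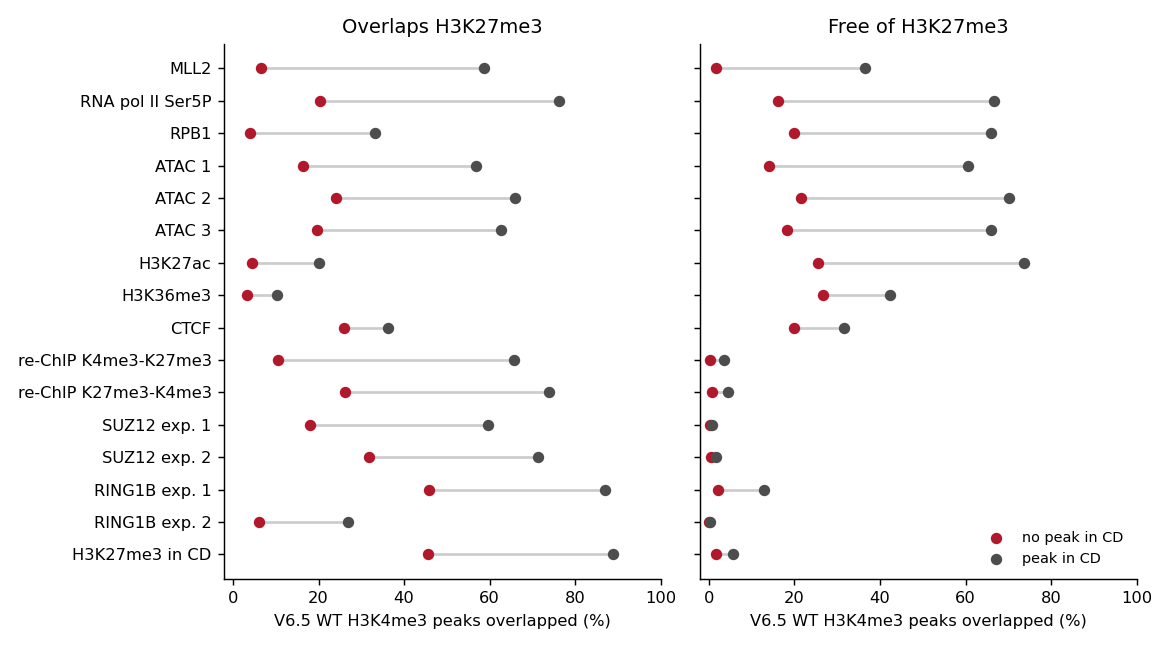
Share of V6.5 WT H3K4me3 peaks overlapped (%) by peaks of other libraries, for peaks with no peak in CD and with a peak in CD, by H3K27me3 class; rows are conditional WT libraries except the last, H3K27me3 in V6.5 CD cells. Pooled over scores, every row of both panels has the higher share at kept peaks, with MLL2 at 6.60% of lost and 58.8% of kept H3K27me3-overlapping peaks.

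Of 25891 CD peaks, 1073 had no V6.5 WT peak, or 4.14%, and 13.5% had none among the same number of highest-scoring WT peaks. The 1073 were weak and narrow. Their median score in the CD list was 82.7 and their median width 1205 bases, against 1812 and 2510 bases for the CD peaks with a WT peak. An MLL2 peak lay at 0.839% of them, an H3K27me3 peak of V6.5 WT at 5.78% and an H3K27ac peak of the conditional line at 49.2%, against 41.2, 27.5 and 58.3% of the other CD peaks. A peak was present at 47.5 and 37.4% of them in KO experiments 1 and 2, against 88.6 and 83.0% of the other CD peaks. In conditional WT experiments 1 and 2 the shares were 37.9 and 19.9%, against 95.4 and 92.7%. The highest-scoring of the 1073 lay on chromosome 14 from 66246908 to 66250959, with a score of 3100. It was present in both KO libraries and in no conditional WT library, and it carried no MLL2 or H3K27ac peak.

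Chromosome 8 differed from the other chromosomes in the CD libraries. The median width of its CD H3K4me3 peaks was 2864 bases, against 2321.5 to 2518 bases on the others, and that of its WT peaks was 2103 bases, against 1912 to 2142. Its kept peaks had a median of 95.2% of their WT bases covered in CD, and those of the other chromosomes 88.4 to 92.6%. For H3K27me3 it held 2017 CD and 1197 WT peaks, a ratio of 1.69, where the other chromosomes had 0.759 to 1.04. Of the CD H3K27me3 peaks on it, 59.0% overlapped no WT H3K27me3 peak, against 29.9 to 40.3% elsewhere. Peak lists do not give copy number, so more copies of the chromosome and more or wider marks on it cannot be told apart. The share of WT H3K4me3 peaks kept on chromosome 8, 58.0%, lay within the range of the others, 53.6 to 67.8%. The X chromosome held the highest share. Without chromosome 8, CD peaks with no WT peak made up 4.11%, the KO share at lost minus kept peaks was -61.5 and -59.5 points in experiments 1 and 2, and 2.72% of lost peaks had an MLL2 peak, against 2.71% with it. The Y chromosome had 0 CD peaks and 3 WT peaks.

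**Figure D5:**
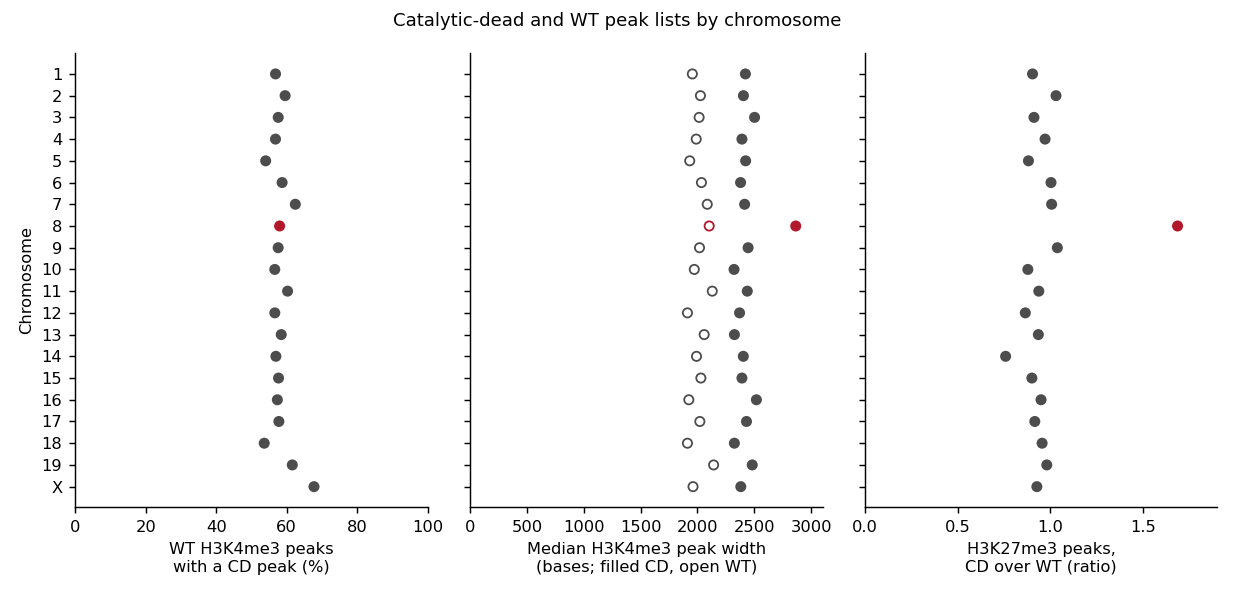
Share of V6.5 WT H3K4me3 peaks with a CD peak (%), median H3K4me3 peak width in CD (filled) and WT (open), and ratio of H3K27me3 peak numbers, CD over WT, for each autosome and the X chromosome; chromosome 8 is in red. Its CD median width of 2864 bases and its ratio of 1.69 lie outside the other chromosomes, and its kept share of 58.0% lies among them.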

How the data were processed

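ChIP-seq, ATAC-seq and sequential ChIP peak or window lists were used as deposited. Per the submitters' processing notes, reads were aligned with Bowtie to mm9 (dm3 and hg19 are listed for libraries with added chromatin). The peak caller, its settings and each library's depth were not stated in the labels. The deposited score of a peak is the authors' and has no stated unit. V6.5 libraries and conditional experiment 2 used the same H3K4me3 antibody, per the labels, and experiment 1 another. H3K27me3 was profiled with 1 antibody throughout the V6.5 cells.

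Overlaps of at least 1 base were counted with Python 3.11.15, numpy 2.4.6 and pandas 2.3.3, checked on simulated intervals, with 95% Wilson intervals (statsmodels 0.14.6). Deciles (10 bins) were cut from the V6.5 WT list, with ties at 3100 split by position. Regions were named by rule: the 5 highest-scoring and 5 widest lost peaks per class, the 5 highest-scoring CD peaks with no WT peak, the 5 highest-scoring with MLL2 and H3K27me3 lost in CD and both KO libraries, and the 5 widest kept H3K27me3-overlapping peaks. Members, lists and comparisons were chosen with earlier results of these data known. Gene expression tables and KO lists other than H3K4me3 were not used here.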

Additional observations from a re-analysis of the deposited data

How the results depend on the processing

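The class shares and their difference, the share of CD peaks with no WT peak, the ratio of covered length, the KO differences and the MLL2 share of lost peaks were recomputed under the alternatives, of which leaving out chromosome 8 and averaging over deciles were chosen after seeing the data. Of 57 recomputed values, 19 stayed within the counting interval of the value reported and 35 moved. Of the 35, 5 were ratios of covered length, which have no such interval. The other 3 turned the sign of the difference between the classes. The smallest of these 3, -0.63 points with equal-number lists, had a counting interval of -1.65 to 0.384, which includes 0. The share of kept H3K27me3-overlapping peaks was 81.6% with equal-number lists, 63.5% with an overlap of at least 50% of the peak, 52.6% with the upper 50% of each list by score, 64.8% with H3K27me3 over at least 50% of the peak and 80.1% with the class taken from both conditional WT experiments. In the same order the share of kept free peaks was 82.2, 52.5, 68.0, 56.5 and 53.6%, with 56.2% after merging peaks within 500 bases and 54.8% over union regions. With the class from both conditional WT experiments, peaks on which these 2 experiments disagreed were left out. The difference of the classes was -0.63 points with equal-number lists, -15.4 with the upper 50% by score and -6.44 as a mean over score deciles, and 8.37 with H3K27me3 over at least 50% of the peak, 26.5 with the conditional classes and 6.99 as a mean over width deciles; the cause was not tested. The share of CD peaks with no WT peak was 13.5% with equal-number lists, 4.51% with the 50% overlap, 0.379% with the upper 50% by score and 3.87% after merging. The ratio of covered length was 0.837, 0.668, 0.688, 0.687 and 0.685 with equal-number lists, the upper 50% by score, merging, autosomes alone and without chromosome 8. The KO share at lost minus kept peaks was -55.5 points in experiment 1 and -55.0 in experiment 2 with equal-number lists, -57.5 and -54.7 with the 50% overlap, -27.9 and -35.7 with the upper 50% by score, and -48.7 and -44.1 over score deciles 1 to 7. The share of lost peaks with an MLL2 peak was 2.71%, and 7.04% with equal-number lists, 3.21% with the 50% overlap and 20.7% with the upper 50% by score. In each value for the upper 50% by score, WT peaks were set against the upper 50% of CD peaks alone. A WT peak overlapped only by a lower-scoring CD peak then counted as lost. No paired analysis was possible because the V6.5 CD and WT groups hold 1 library each and no result comes from a test; the conditional pairs are given by experiment.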

Other observations

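Strong lost peaks were uneven along chromosome 13. Between 21 and 24 Mb in mm9, a stretch chosen after its values were seen, 21 of 84 V6.5 WT peaks with a score of at least 1000 had no CD peak (25.0%, 17.0 to 35.2), against 294 of 16334 elsewhere (1.80%, 1.61 to 2.02). Of the 11 lost peaks with a score of at least 3100, 5 lay there. All 21 were present in both conditional WT libraries, 7 in both KO libraries and 11 in no KO library. MLL2 peaks lay at 9 of the 21, and H3K27me3 of V6.5 WT at 6. Of all 315 lost peaks with a score of at least 1000, 146 were in both KO libraries and 142 in no KO library. An MLL2 peak lay at 70 of the 315, and H3K27me3 of V6.5 WT at 136. Over the whole of chromosome 13, 4.67% of strong peaks were lost, the highest share of any chromosome, and the lowest was 0.661% on the X chromosome.

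In the free class the widest lost peak lay on chromosome 17 from 10477317 to 10495028, 17712 bases with a score of 454.93, and it was present in both KO libraries. The third widest lost peak, on chromosome 13 from 23588821 to 23600690, 11870 bases with a score of 3100, was also among the 5 highest-scoring lost free peaks. In that second ranking peaks tied at 3100 stood by falling width, so width entered both. In the H3K27me3-overlapping class the widest lost peak lay on chromosome 5 from 112642270 to 112647088, 4819 bases with a score of 550, and it too was present in both KO libraries.

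The median distance to the nearest kept peak was 14605 bases for H3K27me3-overlapping and 10297 bases for free lost peaks, and 13.5 and 17.7% lay within 2000 bases of one. The same distance between one kept peak and the next was 16669 bases in the overlapping and 7716.5 bases in the free class, with 16.0 and 24.9% within 2000 bases.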
